A study of Homo sapiens with 6 samples.

Results

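Immediate early genes are switched on within minutes of a growth factor or stress signal, without new protein synthesis, and 9 of them are described here: EGR1, EGR2, EGR3, EGR4, IER2, IER3, DUSP1, NR4A1 and ZFP36. They were chosen by name, out of 20033 protein-coding genes of GENCODE release 44, and each was examined over its gene body and 10 kb on either side. Open chromatin had been mapped by ATAC-seq, in which Tn5 transposase cuts accessible DNA, in MCF10A, an established, wild-type and non-tumorigenic human mammary epithelial line that is grown in medium with EGF, horse serum, insulin, hydrocortisone and cholera toxin. All cells first spent 30 min in a phosphate-free buffered salt solution (HHBSS) and then 30 min in the same solution with 50 µM TPA, a cell-permeable Zn2+ chelator, with 30 µM ZnCl2, or with no addition (control). There were 2 libraries per group and 6 in all. The methods of the study call these biological replicates and its results call them technical, so the spread between them may be technical.

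The measurement is a list of open regions for each library, from 18887 regions in ZnCl2 replicate 2 to 44641 in control replicate 2, each with a score from the authors' caller. The lists hold no read counts, and the depth of the libraries is unknown. Because lists of different length cannot be compared by raw score, each region was given its percentile, the share of regions in its own list with a lower score. A gene whose start was not covered counted as 0. ZnCl2 replicate 2 and control replicate 1 had the shortest lists, and ZnCl2 replicate 2 also had the widest regions, with a median of 2070 bp against 1070 to 1760 bp in the other libraries. Among epithelial markers, the canonical starts of LAMB3 and ITGB4 were open in 6 libraries, KRT5, KRT17 and EGFR in 5, KRT14 in 4, CDH1 in 3 and TP63 in 0. Of 8 markers of blood, liver, muscle, glia, endothelium and pancreas, 7 were open in no library and GFAP in 1.

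The members fall into groups by role. EGR1 to EGR4 and NR4A1 encode transcription factors, the former with zinc fingers of the C2H2 type and the latter an orphan nuclear receptor. IER2 encodes a small nuclear regulator and IER3 a regulator of cell survival. DUSP1, a phosphatase that inactivates MAP kinases, and ZFP36 (tristetraprolin), a CCCH zinc finger protein that promotes decay of AU-rich mRNAs, feed back on the signals that induce them. In the classical scheme, MAP kinases phosphorylate ETS-family partners of serum response factor, which binds CArG boxes in these promoters, and cAMP or stress signals act through CREB on TGACG-containing elements.

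Promoter sequences are shown for EGR1, the most accessible member, and for DUSP1 and IER2, whose start regions stood on opposite sides of the control in TPA-treated cells. Each is the 250 bases upstream of the RefSeq start (GRCh38.p14), written 5′ to 3′ on the coding strand. In EGR1 (chr5:138465229-138465478, plus strand) the capitals mark the CArG boxes. In DUSP1 (chr5:172771196-172771445, minus strand) and IER2 (chr19:13150161-13150410, plus strand) they mark TGACG, the CRE core, on either strand.
EGR1: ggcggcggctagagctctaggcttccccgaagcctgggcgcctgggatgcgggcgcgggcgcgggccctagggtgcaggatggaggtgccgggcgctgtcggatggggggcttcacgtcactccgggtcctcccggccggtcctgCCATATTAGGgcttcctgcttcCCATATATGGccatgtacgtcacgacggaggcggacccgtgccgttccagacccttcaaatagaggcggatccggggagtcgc
DUSP1: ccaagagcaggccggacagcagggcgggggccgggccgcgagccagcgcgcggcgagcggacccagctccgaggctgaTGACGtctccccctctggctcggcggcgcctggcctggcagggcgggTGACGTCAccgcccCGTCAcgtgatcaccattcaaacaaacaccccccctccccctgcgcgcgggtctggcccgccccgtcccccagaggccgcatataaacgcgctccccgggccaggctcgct
IER2: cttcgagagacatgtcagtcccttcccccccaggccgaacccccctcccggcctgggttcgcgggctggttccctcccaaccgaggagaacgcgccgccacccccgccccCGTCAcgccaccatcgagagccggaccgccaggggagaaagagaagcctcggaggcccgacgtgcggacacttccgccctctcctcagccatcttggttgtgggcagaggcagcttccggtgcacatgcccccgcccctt

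Of the 9 members, 7 had an entry in the promoter table used here, and these 7 were searched on both strands over 300 bases, from 250 before the start to 50 after it. For EGR2 and NR4A1 the window lies at the start of the gene record, 2801 and 28610 bp upstream of the canonical start at which accessibility is given, so their canonical promoters were not searched. Among the 7 windows a CArG box (CC, then 6 bases A or T, then GG) was found in that of EGR1, at -105 to -96 and at -83 to -74, and in 1.29% of 35116 promoters. The TGACG core was found in 4 members, EGR1, EGR4, IER2 and DUSP1, and in 24.6% of all promoters. DUSP1 held 4 of these cores, at -172, -125, -122 and -111, the middle pair overlapping in a full palindromic element. The ETS core GGAA was found in 6 of 7 members, all but DUSP1, against 95.5% of promoters. The GC box GGGCGG was in 5 of 7 against 45.0%, the core of the metal response element bound by MTF1 (TGCACNC or TGCGCNC) in 4 of 7 against 29.6%, and the EGR consensus site in 0 of 7 against 5.77%. GC content was 53.3 to 74.7% with a median of 69.7%, against a median of 58.7% over all promoters. A match is a run of letters and says nothing of binding.

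Chromatin at these genes was open in all 3 conditions. Merging the 6 lists gave 29 open regions in the 9 windows, of which 22 (75.9%) were called in all 6 libraries, against 32.0% of the 49527 merged regions of the genome. The libraries held 30 and 31 regions in these windows with TPA, 25 and 30 in the control and 28 and 22 with ZnCl2. The start of the gene record was open in all 6 libraries for 5 of 9 members against 39.3% of protein-coding genes, and the start of the canonical transcript for 7 of 9 against 43.0%. Other genes of the response had an open gene record start in all 6 libraries more often than the members. These were 11 of 12 inducible transcription factors, 12 of 16 feedback and stress regulators and 5 of 7 inducing factors. This order holds for gene record starts only, since at canonical starts the members had 7 of 9 and counts for these lists are not given. The start records differ by 2801 bp for EGR2 and by 28610 bp for NR4A1, and values for these genes are given at the canonical start. Start regions of the members were wide, with a median of 2780 to 5160 bp by library, against 1690 to 2760 bp for all genes with an open start.

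**Figure D1:**
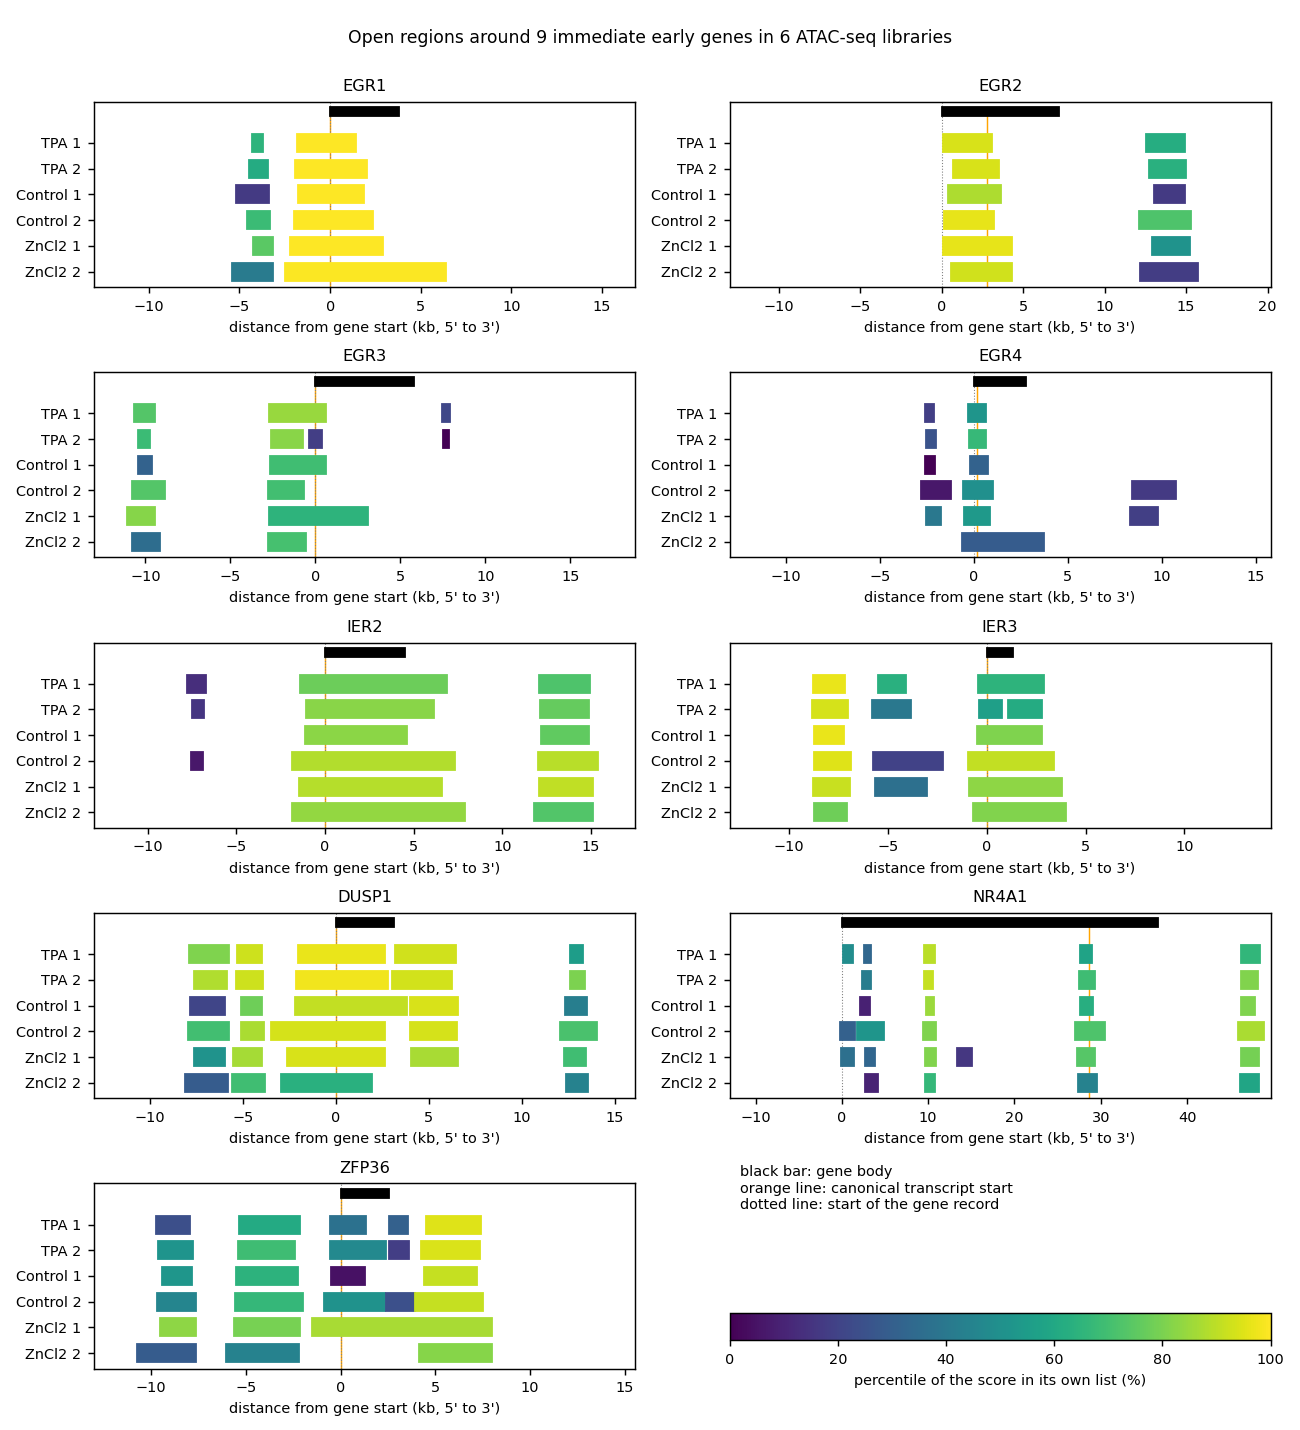
Open regions of each library (rows) around each member, by distance from the gene start in kb along the direction of transcription, coloured by the percentile of the region's score in its own list. Most regions recur at the same place in every library, and EGR1 carries the brightest start region.

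With TPA, DUSP1 and EGR4 had a higher start percentile in both libraries than in either control library, and IER2 and IER3 a lower one. These are 2 members higher and 2 lower among the 8 with an open gene start, and among all genes tested 10.8% were higher and 18.6% lower in this way. With ZnCl2, 0 members stood apart from the control in either direction, while 2.22% of all genes were higher and 11.2% lower. TPA against ZnCl2 gave 1 member higher, DUSP1, and 2 lower, IER2 and IER3, against 21.9 and 14.6% of genes. These counts and shares changed with lists of equal length. ZnCl2 was then above the control for 1 of 7 members tested, IER2, and below it for 0, against 21.6 and 16.7% of genes. TPA against ZnCl2 then gave 1 higher, DUSP1, and 3 lower, EGR1, IER2 and IER3, against 15.8 and 39.5%. The TPA counts against the control stayed at 2 and 2, against 12.1 and 34.1%. With 2 libraries against 2 the two-sided exact permutation test cannot go below p = 0.333, so none of these differences can pass a threshold, and the counts are descriptions. Leaving out a library sets 1 library against 2, a looser rule under which a count can only stay or rise. The share over all genes under that rule is not given here. In the full lists without ZnCl2 replicate 2, 5 members were higher and 0 lower with ZnCl2 than in the control. Without ZnCl2 replicate 1 there were 0 higher and 4 lower, and without control replicate 2 there were 2 higher and 1 lower. Without control replicate 1, 5 members were lower than the control with TPA and 2 with ZnCl2. For TPA against ZnCl2, leaving out ZnCl2 replicate 1 gave 5 members higher, leaving out ZnCl2 replicate 2 gave 5 lower, and leaving out either TPA replicate gave 2 higher. The 3 comparisons share libraries and are not independent.

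**Figure D2:**
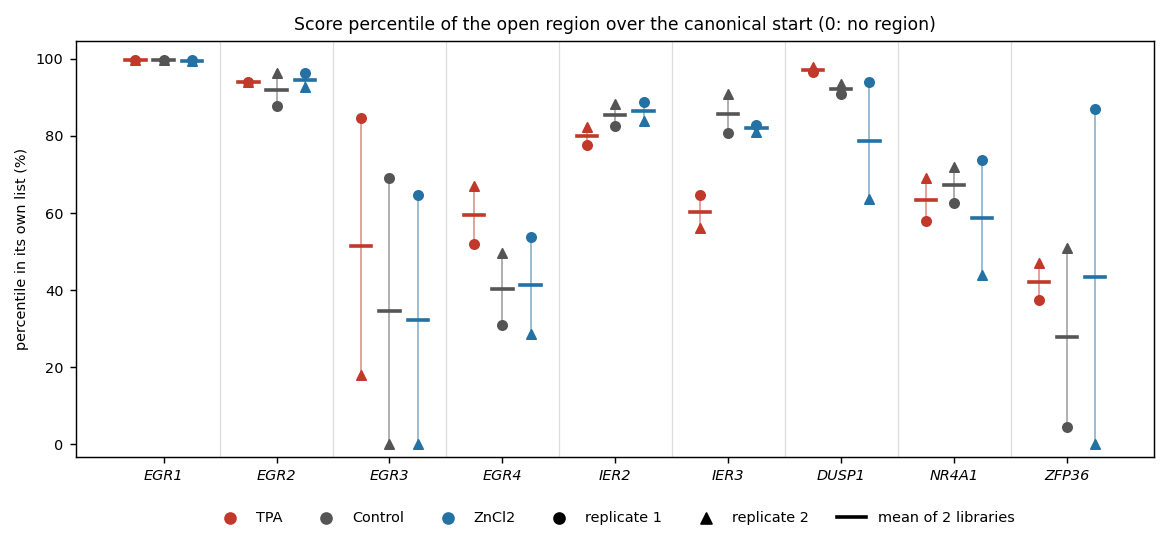
Percentile of the region over the canonical start (vertical axis, %) for each member, with circles for replicate 1, triangles for replicate 2 and bars for the mean of 2 libraries. DUSP1 and EGR4 lie above the control with TPA, IER2 and IER3 lie below it, and EGR1 stays near the top in every library.

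EGR1 (ENSG00000120738.8, chr5:138465479-138469303, plus strand) encodes the founding member of its family and is the classical target of serum response factor. Its start region stood at a percentile of 99.7 in both TPA libraries, both control libraries and ZnCl2 replicate 1, and of 99.5 in ZnCl2 replicate 2. It ranked between 84 and 137 from the top of each list, and the differences in percentile lay within the spread between libraries. The extent of the region differed instead. It was 3270 and 3960 bp wide with TPA, 3610 and 4360 bp in the control and 5160 and 8880 bp with ZnCl2, so that both ZnCl2 libraries were wider than the other 4 while TPA and control overlapped. The mean was 7020 ± 2630 bp (SD, n = 2) with ZnCl2 against 3985 ± 530 bp (SD, n = 2) in the control, a difference of 3035 bp that was 1175 bp without ZnCl2 replicate 2 and 4895 bp without ZnCl2 replicate 1. TPA differed from ZnCl2 by -3405 bp, by -1545 bp without ZnCl2 replicate 2 and by -5265 bp without ZnCl2 replicate 1.

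The widening lay mainly on the side of the gene body. The upstream edge was at -1827 and -1947 bp with TPA, -1757 and -1997 bp in the control and -2236 and -2467 bp with ZnCl2. The downstream edge was at 1442 and 2012 bp with TPA, 1852 and 2362 bp in the control and 2923 and 6412 bp with ZnCl2, where the last value passes the end of the gene. The open sequence in the whole window was 3870 and 4970 bp with TPA, 5420 and 5660 bp in the control and 6240 and 11110 bp with ZnCl2, which put the groups in the order TPA, control, ZnCl2 with no overlap. Without ZnCl2 replicate 2 the excess of ZnCl2 over the control was 700 bp in place of 3135 bp, and without TPA replicate 1 the difference of TPA from the control was -570 bp in place of -1120 bp.

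A further region, -5397 to -3167 bp from the start and outside annotated genes, was called in every library. Its percentile was 64.7 and 61.1 with TPA, 16.8 and 68.2 in the control and 74.4 and 41.2 with ZnCl2, so the groups overlapped.

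The study tested EGR1 as a p53 target by ChIP-qPCR, and the amplicon of its primers was placed in hg38 at chr5:138470174-138470282, which is 871 bp past the end of the gene. It is shown because the edge of the open region reached it in a single library. Capitals mark the primer sites.
EGR1 amplicon: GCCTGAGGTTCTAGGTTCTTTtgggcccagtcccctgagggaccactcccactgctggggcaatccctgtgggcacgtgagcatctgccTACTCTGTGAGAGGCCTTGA

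The amplicon was covered by the open region of ZnCl2 replicate 2 and of no other library. The nearest open region ended 3253 and 2683 bp away with TPA, 2843 and 2333 bp away in the control and 1772 bp away in ZnCl2 replicate 1. Both ZnCl2 libraries thus came closer than the other 4, but the overlap itself rests on the library with the widest regions. The study itself, from read counts, reported a large gain in accessibility with ZnCl2 at its p53 site downstream of EGR1. At EGR1 its ChIP-qPCR signal over background was highest with ZnCl2, but EGR1 had the lowest such signal among its targets. The study took changes in binding from another measure, the enrichment relative to the control. The lists used here hold no read counts and can measure neither that gain nor binding.

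**Figure D3:**
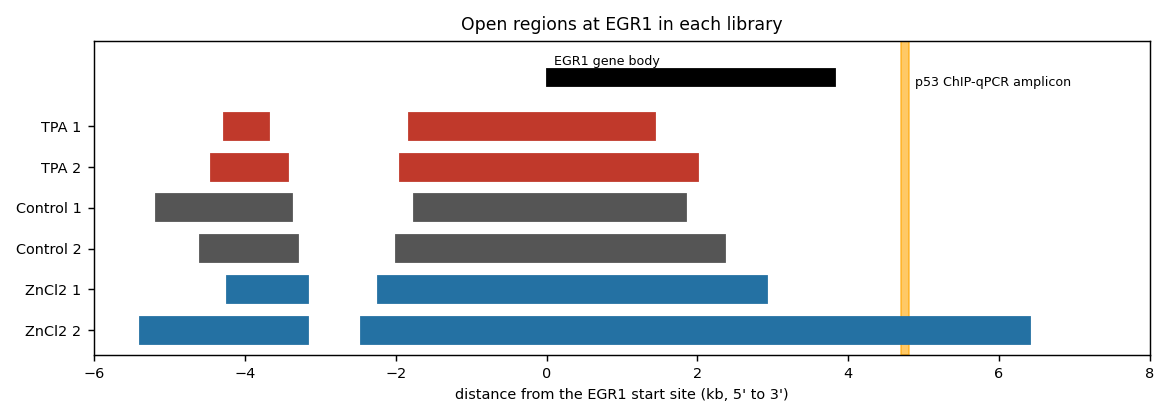
Open regions at EGR1 in each library by distance from its start in kb, with the gene body in black and the ChIP-qPCR amplicon in orange. The start region extends farthest into the gene with ZnCl2 and covers the amplicon in ZnCl2 replicate 2.

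EGR2 (ENSG00000122877.18, chr10:62811996-62819167, minus strand), known for its role in myelination and in lymphocytes, also had its widest start regions with ZnCl2, by a smaller margin. The region over its canonical start was 3020 and 2780 bp wide with TPA, 3270 and 3110 bp in the control and 4230 and 3740 bp with ZnCl2, and no group overlapped another. The mean difference from the control was -290 bp with TPA, or -170 bp without TPA replicate 2, and 795 bp with ZnCl2. Its percentile was 94.1 in both TPA libraries, 87.7 and 96.3 in the control and 96.4 and 92.8 with ZnCl2, where the groups overlapped. The start of ADO, a thiol dioxygenase gene, lies 14447 bp downstream of the EGR2 start record in a region of its own, with 62.1 and 63.6 with TPA, 16.8 and 72.0 in the control and 51.3 and 17.9 with ZnCl2.

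EGR3 (ENSG00000179388.9, on chromosome 8) acts in muscle spindles and lymphocytes. A merged region of 5870 bp around its start had percentiles of 84.7 and 82.3 with TPA, 69.2 and 69.8 in the control and 64.8 and 70.6 with ZnCl2. Both TPA libraries were thus higher than the other 4. Within it the calls ended at different places: the start base itself was covered in TPA replicates 1 and 2, control replicate 1 and ZnCl2 replicate 1, at 84.7, 18.1, 69.2 and 64.8, and was left uncovered in control replicate 2 and ZnCl2 replicate 2. A region of 490 bp past the gene end, 7460 to 7949 bp from the start, was called in both TPA libraries and in no other, at 21.2 and at the lowest score of its list. A region -11110 to -8821 bp from the start, within a lncRNA gene, had 73.3 and 68.0 with TPA, 31.0 and 73.4 in the control and 81.7 and 35.2 with ZnCl2.

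EGR4 (ENSG00000135625.8, chr2:73290929-73293701, minus strand) had a weaker start region than EGR1 and EGR2 in every library. Its percentile was 52.0 and 67.0 with TPA, 31.0 and 49.7 in the control and 53.8 and 28.7 with ZnCl2. TPA was above the control in both libraries, 59.5 ± 10.6 against 40.3 ± 13.3 (SD, n = 2 each), and overlapped ZnCl2. The difference of 19.2 percentile points was 9.78 without control replicate 1 and 11.6 without TPA replicate 2. In width TPA was below the control instead, with 950 and 910 bp with TPA, 970 and 1580 bp in the control and 1360 and 4380 bp with ZnCl2. The narrower TPA regions differed from the nearest control value by less than the spread within the control, and the mean difference of -345 bp was -40 bp without control replicate 2. It turned to 445 bp with equal numbers of regions and to 140 bp in the upper 50% of each list by score. With equal numbers the start was uncovered in control replicate 2. The difference from ZnCl2, -1940 bp, was -430 bp without ZnCl2 replicate 2 and -3450 bp without ZnCl2 replicate 1, and turned to 250 bp in the upper 50%. A region -2799 to -1230 bp from the start had 18.6 and 25.7 with TPA, the lowest score of the list and 6.37 in the control, 40.2 in ZnCl2 replicate 1 and no call in ZnCl2 replicate 2. The start of the neighbour FBXO41 was open in control replicate 2 and ZnCl2 replicate 1, at 17.1 and 18.6.

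**Figure D4:**
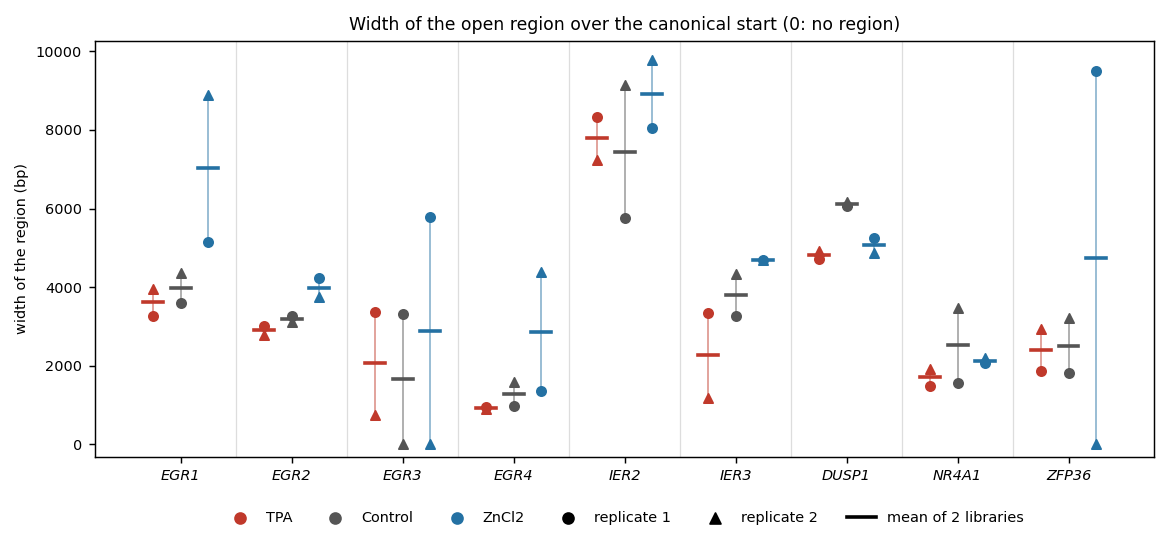
Width in bp of the region over the canonical start for each member, with circles for replicate 1, triangles for replicate 2 and bars for the mean of 2 libraries. EGR1, EGR2 and IER3 are widest with ZnCl2, and DUSP1 is widest in the control.

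Over the members, 2 had a start region that was wider in both ZnCl2 libraries than in either control library, EGR1 and IER3, against 7.96% of all genes, and 1 was narrower, DUSP1, against 3.38%. At canonical starts EGR2 joined the wider ones, where the share over all genes was 8.21%. With TPA, 0 were wider and 2 narrower than the control, EGR4 and DUSP1, against 2.13 and 14.2% of genes. Between TPA and ZnCl2, 0 were wider with TPA and 3 narrower, EGR1, EGR4 and IER3, against 5.15 and 41.0%, so that narrower regions with TPA than with ZnCl2 were common over the genome. At canonical starts 3 members were narrower with TPA than the control (EGR2 in addition, 14.6% of genes) and 5 narrower than with ZnCl2 (EGR2 and NR4A1 in addition, 41.7%). With equal numbers of regions DUSP1 alone stayed narrower with TPA than the control at gene record starts (20.3%). At canonical starts EGR2 stayed narrower as well, at 3020 and 2780 bp against 3270 and 3110 bp, and the share over all genes there is not given. The median difference in width between ZnCl2 and control was 1350 bp over the 8 members tested and 10 bp over all genes tested. Several widths in this median are unstable: for EGR3 and ZFP36 the start was uncovered in ZnCl2 replicate 2, and for EGR4 the value came largely from that library. Leaving out a library again loosened the rule, so that counts of widths could only stay or rise, and shares over all genes under it are not given here. Without control replicate 1, 7 members were narrower with TPA than the control, and without ZnCl2 replicate 2, 7 were narrower with TPA than with ZnCl2. Without either ZnCl2 replicate or without control replicate 2, 4 were wider with ZnCl2 than the control.

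In open sequence over the window, ZnCl2 exceeded the control for EGR1 and EGR2 (4.49% of genes) and was below it for DUSP1 (2.64%), TPA was below the control for EGR1, EGR4 and DUSP1 (9.39%) and above it for 0 members (2.22%), and TPA was below ZnCl2 for EGR1, EGR2, EGR4 and NR4A1 (34.0%) and above it for 0 members (10.4%). With equal numbers of regions EGR1, EGR4 and DUSP1 no longer stood below the control with TPA, the differences at EGR4 and DUSP1 turning to 445 and 100 bp, and ZFP36 was the 1 member below it (22.6% of genes). ZnCl2 then exceeded the control for 5 members, EGR1, EGR2, EGR4, IER3 and ZFP36 (15.0%), and was below it for 0 (4.87%). Counts in the full lists with a library left out follow the looser rule, could only stay or rise, and are given without shares over all genes. Without control replicate 1 TPA was below the control for 8 members. Without control replicate 2 TPA was above it for 4 and ZnCl2 was above the control for 7, and without ZnCl2 replicate 2 TPA was below ZnCl2 for 7.

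NR4A1 (ENSG00000123358.20, chr12:52022832-52059507, plus strand) encodes Nur77. Its canonical start had percentiles of 58.0 and 69.1 with TPA, 62.6 and 72.0 in the control and 73.7 and 43.9 with ZnCl2, with overlap between all groups. The region there was 1490 and 1920 bp wide with TPA, 1570 and 3480 bp in the control and 2060 and 2200 bp with ZnCl2. The start of the gene record, 28610 bp upstream, was covered in control replicate 2 and ZnCl2 replicate 1 at 30.6 and 36.4. The strongest region of the gene lay in an intron, 9369 to 10938 bp from the start of the record. It stood at 89.6 and 91.1 with TPA, 84.9 and 80.6 in the control and 81.2 and 66.6 with ZnCl2, so that TPA was above both other groups. A second intronic region, 1739 to 4858 bp from that start, had 33.1 and 42.0 with TPA, 9.08 and 52.3 in the control and 32.5 and 9.41 with ZnCl2. The start of ATG101, an autophagy gene, lies in the window at 46414 bp and had 65.9 and 81.0 with TPA, 80.8 and 87.2 in the control and 79.1 and 58.8 with ZnCl2, below the control in both ZnCl2 libraries.

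IER2 (ENSG00000160888.7, chr19:13150411-13154911, plus strand) lay in a single broad region that covered the gene from end to end. Its percentile was 77.7 and 82.3 with TPA, 82.5 and 88.4 in the control and 88.7 and 84.0 with ZnCl2. TPA was lower than both other groups by a small margin, 80.0 ± 3.29 against 85.5 ± 4.17 in the control and 86.4 ± 3.38 with ZnCl2 (SD, n = 2 each). The difference of -5.46 points from the control was -2.51 without control replicate 2, -8.41 without control replicate 1 and -3.13 without TPA replicate 1. That from ZnCl2, -6.36 points, was -3.97 without ZnCl2 replicate 1 and -4.03 without TPA replicate 1. The region was 8340 and 7240 bp wide with TPA, 5750 and 9150 bp in the control and 8050 and 9780 bp with ZnCl2, where the groups overlapped. STX10 starts 28 bp upstream on the other strand, within the same region, so that the value belongs to a shared promoter. A region 11800 to 15389 bp downstream of the start had 72.2 and 76.5 with TPA, 75.5 and 89.3 in the control and 90.6 and 72.9 with ZnCl2.

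A weak region -7780 to -6691 bp from the IER2 start was called in both TPA libraries and control replicate 2, at 13.1, 15.5 and 6.37, and in neither ZnCl2 library.

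IER3 (ENSG00000137331.12, chr6:30743199-30744548, minus strand) had the largest difference in start percentile between TPA and control among the members. Its start stood at 64.7 and 56.0 with TPA, 80.8 and 90.8 in the control and 82.9 and 81.1 with ZnCl2. TPA was lower than both other groups, 60.4 ± 6.11 against 85.8 ± 7.05 and 82.0 ± 1.31 (SD, n = 2 each), a difference of -25.4 points from the control that ranged from -30.4 to -20.4 when single libraries were left out. The region was 3350 and 1190 bp wide with TPA, 3280 and 4340 bp in the control and 4700 and 4690 bp with ZnCl2. In TPA replicate 2 it was broken into separate calls, from -402 to 787 bp and from 1068 to 2787 bp. The ZnCl2 regions were wider than those of the control by 885 bp, or by 355 bp without control replicate 1 and 1415 bp without control replicate 2. FLOT1, a gene for a membrane raft protein, starts 1816 bp downstream within the same merged region. In every library but TPA replicate 2 a single call covered both starts, so that the value there belongs to both genes. In TPA replicate 2 the call over the FLOT1 start had 61.1 and that over the IER3 start 56.0.

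Upstream of IER3 the order differed. A region -5792 to -2193 bp from the start, in an intron of the lncRNA gene HCG20, had 63.4 and 40.1 with TPA, no call and 19.7 in the control and 36.4 and no call with ZnCl2, so that TPA was the highest group where the start was the lowest. A strong region -8812 to -6863 bp from the start, in the same intron, had 96.7 and 93.6 with TPA, 96.6 and 95.2 in the control and 91.5 and 77.9 with ZnCl2, with both ZnCl2 libraries below the other 4. Its central 300 bases in hg38, at chr6:30752236-30752535 on the plus strand, are shown because in every library this was the strongest region of these windows that lay over no coding gene start, and the capitals mark TGANTCA.
IER3 upstream region: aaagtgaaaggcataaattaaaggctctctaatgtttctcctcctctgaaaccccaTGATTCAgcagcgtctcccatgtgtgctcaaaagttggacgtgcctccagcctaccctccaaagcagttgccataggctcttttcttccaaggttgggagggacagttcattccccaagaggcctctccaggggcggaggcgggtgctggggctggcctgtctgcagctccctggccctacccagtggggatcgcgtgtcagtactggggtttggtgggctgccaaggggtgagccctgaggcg

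TGANTCA was present in the central 300 bases of 4 of the 29 merged regions (13.8%), against 27.0% of the 49527 merged regions of the genome. This motif was chosen after the values of the regions had been seen.

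DUSP1 (ENSG00000120129.6, chr5:172768096-172771195, minus strand) was the member with the most regions higher with TPA. Its start stood at 96.5 and 97.9 with TPA, 90.8 and 93.6 in the control and 93.9 and 63.6 with ZnCl2, so that TPA was above the other 4 libraries. The mean was 97.2 ± 0.975 with TPA against 92.2 ± 1.93 in the control (SD, n = 2 each), a difference of 4.98 points with a range from 3.62 to 6.35 when single libraries were left out. Against ZnCl2 the difference of 18.4 points was 3.25 without ZnCl2 replicate 2 and 33.6 without ZnCl2 replicate 1. The width followed another order, with 4710 and 4930 bp with TPA, 6070 and 6160 bp in the control and 5250 and 4880 bp with ZnCl2, so that both control libraries were wider than the other 4. The difference from the control was -1295 bp with TPA and -1050 bp with ZnCl2.

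The upstream side of DUSP1 held further regions that overlapped exons of a lncRNA gene. The nearer, -5605 to -3836 bp from the start, had 92.5 in both TPA libraries, 77.8 and 87.5 in the control and 86.5 and 69.3 with ZnCl2. The farther, -8115 to -5756 bp, had 80.8 and 87.9 with TPA, 20.4 and 69.8 in the control and 51.3 and 28.7 with ZnCl2. In both, TPA was above the other 4 libraries. On the downstream side, a region that ran from between 3035 and 4035 bp to between 6264 and 6584 bp had 92.8 and 93.3 with TPA, 93.8 and 93.7 in the control and 86.9 in ZnCl2 replicate 1, with no call in ZnCl2 replicate 2. A region 12045 to 14034 bp downstream had 55.2 and 80.4 with TPA, 42.6 and 71.3 in the control and 69.2 and 43.9 with ZnCl2, where the groups overlapped.

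ZFP36 (ENSG00000128016.7, chr19:39406847-39409412, plus strand) had a weak and variable start region. Its percentile was 37.4 and 47.0 with TPA, 4.60 and 51.0 in the control and 86.9 and no call with ZnCl2. The value in ZnCl2 replicate 1 came from a region of 9500 bp that ran through the gene to the start of PLEKHG2, a guanine nucleotide exchange factor gene, at 5822 bp. In the other 5 libraries the region over the PLEKHG2 start was a call of its own, at 95.3 and 94.4 with TPA, 91.3 in both control libraries and 81.9 in ZnCl2 replicate 2, so that 5 of the 6 values of the merged region were those of the neighbour. Regions upstream of ZFP36 overlapped between groups. The one at -6056 to -1987 bp had 60.7 and 69.1 with TPA, 64.4 and 66.5 in the control and 79.6 and 43.9 with ZnCl2, and the one at -10726 to -7627 bp, over MED29 exon sequence, had 23.9 and 51.8, 52.4 and 45.6, and 82.9 and 28.7 in the same order.

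Over all regions of the windows, TPA was above both control libraries at 10 of the 28 merged regions tested and below them at 2, against 19.1 and 7.24% over the genome. The 10 included the merged regions over the starts of EGR3, EGR4 and DUSP1, that of ZFP36 and PLEKHG2, and the intronic NR4A1 region. The rest were a region upstream of each of EGR4, IER2 and IER3, and the pair upstream of DUSP1. The 2 were the start regions of IER2 and IER3. At the EGR3 start base itself the groups overlapped, with 84.7 and 18.1 with TPA against 69.2 and no call in the control. TPA was above ZnCl2 at 11 of 29 and below it at 2, against 35.7 and 6.04%, and ZnCl2 was above the control at 0 of 28 and below it at 3, against 1.36 and 11.3%. Regions called in both libraries of a group and in neither of the other numbered 1 for TPA over control, downstream of EGR3 (2.15% of regions), 0 for control over TPA (0.740%), 2 for TPA over ZnCl2, at EGR3 and IER2 (10.4%), 0 for ZnCl2 over TPA (1.06%), and 0 between ZnCl2 and control in either direction (0.184 and 1.85%).

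The balance was different with lists of equal length. When each list was limited to its 18887 highest-scoring regions, TPA was above the control at 6 of 23 merged regions and below it at 5, against 23.8 and 20.0% over the genome. It was above ZnCl2 at 7 of 24 and below it at 9, against 28.6 and 25.3%, and ZnCl2 was above the control at 4 of 22 and below it at 2, against 19.1 and 19.0%. The start and both upstream regions of DUSP1 and the intronic NR4A1 region remained above control and ZnCl2 with TPA, and the start regions of IER2 and IER3 remained below. A lower start with TPA was common in these lists. By percentile at the gene record start, 12.1% of genes were above and 34.1% below the control with TPA, and 15.8% were above and 39.5% below ZnCl2. For the IER3 start the values were then 32.9 and 3.72 with TPA, 74.6 and 78.2 in the control and 65.6 and 81.1 with ZnCl2. For the DUSP1 region at -8115 to -5756 bp they were 63.5 and 73.6 with TPA, no call and 28.6 in the control and 1.83 and 28.7 with ZnCl2. With a library left out of the full lists, 1 library stood against 2, so a count could only stay or rise. Shares over the genome under this looser rule are not given here. The 10 regions higher with TPA then numbered between 10 and 16 and the 2 lower between 2 and 12. The value of 12 was that without control replicate 1 and 16 that without control replicate 2. Without ZnCl2 replicate 2, TPA was below ZnCl2 at 13 regions and ZnCl2 above the control at 15, whereas without ZnCl2 replicate 1 TPA was above ZnCl2 at 21 regions and ZnCl2 below the control at 12. Without control replicate 1 ZnCl2 was below the control at 11 regions, and without control replicate 2 it was above it at 9.

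**Figure D5:**
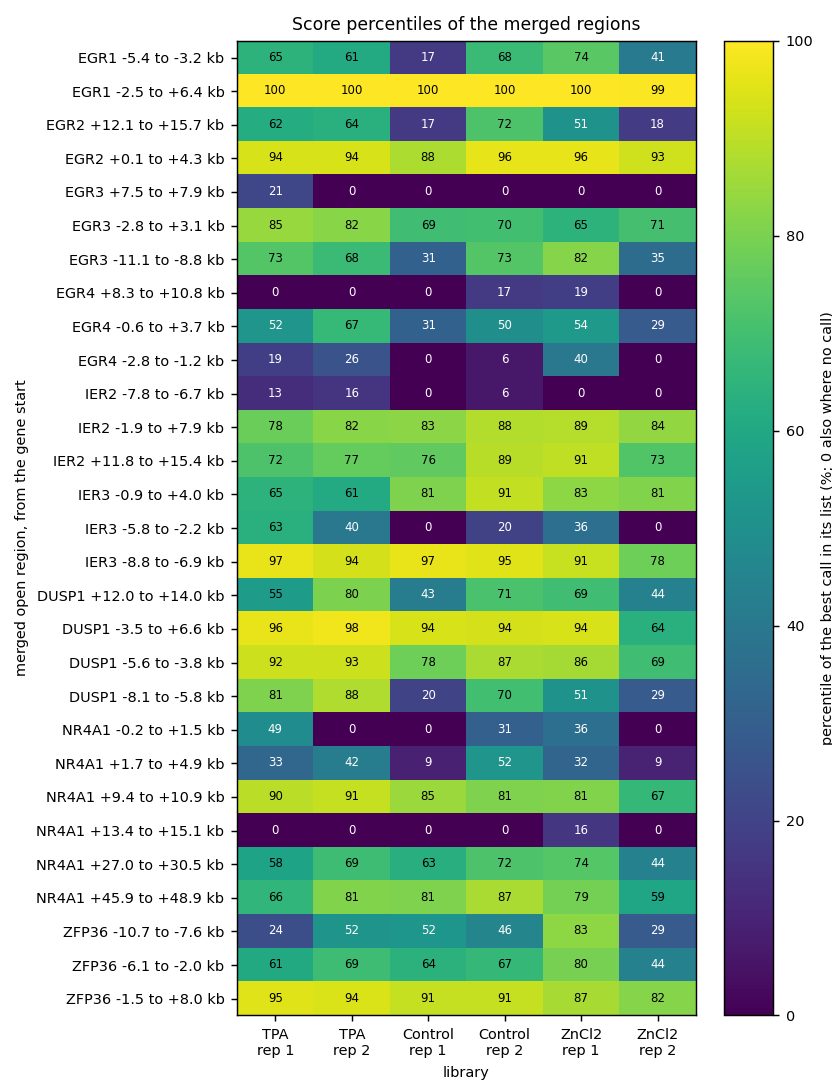
Percentile of the best call in each merged region (rows, named by member and distance from the gene start in kb) in each library (columns), with 0 also where there was no call. The DUSP1 upstream regions are highest with TPA, and the IER3 start region is lowest with TPA.

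Other genes of the response were examined at the gene start, where the shares over all genes were 10.8% above and 18.6% below the control with TPA, 2.22 and 11.2% with ZnCl2, and 21.9 and 14.6% between TPA and ZnCl2. Of 12 inducible transcription factors, 11 were tested, and with TPA 1 was above the control (KLF6, with 80.8 and 85.4 against 79.9 and 74.1) and 1 below (KLF10, with 98.7 and 98.2 against 99.2 and 99.5). With ZnCl2, 0 were above the control and 3 below, among them KLF4, at 51.3 and 53.2 against 54.7 and 84.1, and FOSB, at 76.8 and 60.5 against 85.6 and 79.0. Of 16 feedback and stress regulators, 15 were tested, with 3 above the control with TPA and 3 below. GADD45B, a stress sensor, stood at 74.2 and 72.1 with TPA against 34.2 and 42.8 in the control. DUSP2, a MAP kinase phosphatase like DUSP1, had no call with TPA against 20.4 and 52.3 in the control. NAB2, a corepressor that binds EGR proteins, stood at 64.7 and 59.9 with TPA, 85.6 and 85.8 in the control and 94.2 and 93.0 with ZnCl2, the groups falling in the order TPA, control, ZnCl2. With ZnCl2, NAB2 was the 1 regulator above the control and SPRY4 the 1 below, at 76.8 and 65.1 against 78.9 and 92.8. Between TPA and ZnCl2 6 of these regulators were higher with TPA and 4 lower. Of 7 factors that carry the inducing signal, such as SRF and CREB1, 1 was above the control with TPA, ELK4, at 98.7 and 98.1 against 96.0 and 96.7, and 0 differed in this way with ZnCl2. The SRF start itself had 93.1 and 93.6 with TPA, 87.7 and 96.9 in the control and 93.4 and 92.8 with ZnCl2. The median difference between TPA and control was 2.48 points over the 8 members tested, 0.22 over the inducible factors, -0.83 over the regulators, 2.02 over the inducing factors and -0.65 over all genes tested.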

How the data were processed

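The data are ATAC-seq of 6 MCF10A libraries, 2 per group, grouped by the sample labels. The authors mapped reads to hg38 with HISAT2 2.1.0, called open regions in each library with HMMRATAC, whose version is not given in the sources used here, and deposited 1 list per library with a score per region. The kind of score is not given in the sources used here. Scores were whole numbers of at least 30 and were used only to rank regions within a list. Each library had been sequenced in more than 1 run and the runs combined. Analysis was limited to chromosomes 1 to 22, X and Y, without the 72 to 203 regions per library on other contigs, and the blacklist that the authors applied after merging was not used here. The lists hold no read counts, so depth is unknown.

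Genes were those of GENCODE release 44. A region counted for a start when it covered it by at least 1 bp, and regions of the 6 lists were merged where they overlapped or touched. The test of group means was an exact permutation test, two-sided, whose smallest p with 2 libraries against 2 is 0.333. A gene or region was counted as higher or lower when both libraries of a group lay beyond both of the other, and the same share was taken over all protein-coding genes or merged regions with a call in the comparison. Alternatives were an equal number of regions per library, the upper 50% by score, the 1000 bp upstream of the start, the canonical start, a window of 5 kb, an overlap of at least 50%, leaving out each library, and the replicate number as a block. All 9 members are named, with at most 2 genes of each other list per comparison, those with the largest difference, and coding neighbours whose start lies in a window. The SRF values, the TGANTCA search and the counts of merged regions under other settings were added after values had been seen. The members and lists were chosen with earlier results of these data known. The procedures were tested on simulated data. Promoters came from RefSeq (GRCh38.p14) and other sequences from hg38. Computation used Python 3.11.15 with NumPy 2.4.6, SciPy 1.17.1 and Matplotlib 3.10.9.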

Additional observations from a re-analysis of the deposited data

How the results depend on the processing

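Median differences over the 9 members in start percentile, start width and open sequence moved by less than the spread between libraries under every setting that kept all libraries. That of open sequence, TPA minus control, went from -790 to 10 bp with equal numbers of regions and in the upper 50% by score. Leaving out single libraries gave 0 to 1415 bp for the width of ZnCl2 against control (1235 bp with all libraries) and -2200 to -650 bp for the open sequence of TPA against ZnCl2 (-1275 bp). Counts of regions called in both libraries of a group and neither of the other were small. With a library left out the rule was looser, so these counts could only stay or rise. For TPA against control the count of 1 became 0 with equal numbers of regions, 0 in the upper 50% by score, 3 with an overlap of at least 50%, and 1 to 3 when single libraries were left out. For ZnCl2 against control the count of 0 became 1 with the 50% overlap and 0 to 1 without single libraries. For TPA against ZnCl2 the count of 2, both of them called with TPA, became 1 called with ZnCl2 with equal numbers (upstream of ZFP36), 0 in the upper 50%, 1 with a window of 5 kb, 4 with the 50% overlap and 2 to 4 without single libraries. Among single members, the width of EGR4 with TPA changed sign, to 445 bp over the control with equal numbers, 140 bp over it in the upper 50% and 250 bp over ZnCl2 in the upper 50%. Its open sequence did the same, with 445, 140 and 250 bp. Open sequence of DUSP1 with TPA went to 100 bp over the control with equal numbers and 497.5 bp in the upper 50%, and in the upper 50% TPA exceeded ZnCl2 by 85 bp at EGR2 and 1145 bp at NR4A1. Members with less open sequence with TPA than the control, 3 in all, were 1 with equal numbers and 0 in the upper 50%, and those with less than with ZnCl2, 4 in all, were 2 in the upper 50%. Calls of low score drop out of these shorter lists. Other causes were not tested.

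With the replicate number as a block, the counts of regions called in a single group were 3.5 for TPA against control, 4.5 for ZnCl2 against control and 4 for TPA against ZnCl2, each an average over the pairs. Members higher by start percentile with TPA numbered 3 over control and 2 over ZnCl2 under the block. Over 7880 genes, deviations of same-numbered libraries correlated at 0.173, -0.458 and -0.140. With 2 libraries per group and lists of unequal length, these values cannot show whether the numbers pair the libraries. A crossed pairing, added after the data were seen, gave 1.5 such regions for ZnCl2 against control and 5 for TPA against ZnCl2. The number of regions per list limits what weak calls can show, and its relation to depth is unknown.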
